A study of Caenorhabditis elegans with 2 samples.

Results

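Among the candidate peaks obtained with an eGFP-tagged FKH-10 from late Caenorhabditis elegans embryos, 959 lay in autosomal exons away from gene starts. They were the peaks of the pooled list on chromosomes I to V whose summit fell in an exon of a protein-coding gene, outside the window from 1000 bp upstream to 500 bp downstream of every protein-coding 5' end and more than 100 bp from any tRNA, snoRNA or snRNA gene. They made up 16.1% (95% Wilson interval 15.1 to 17) of the 5973 autosomal peaks and 12.9% of all 7443 pooled peaks. Since a pair of dense stretches of peaks, on chromosome I (14719496 to 14756350) and chromosome IV (7026098 to 7060267), held 23 of them, results are also given for the 936 outside these stretches. The choice used position only, and not peak signal or recurrence between replicates. Position in exons does bear on base composition, and leaving out the windows at 5' ends bears on the exon parts. By its label the pooled list holds peaks and background, and the authors' thresholded list keeps 378 of the 7443. Most of the exonic peaks are thus candidates and not established binding sites.

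The study applied ChIP-seq, in which DNA fragments held by one protein are pulled down with an antibody and sequenced, to whole late embryos of pooled sexes and unknown age. It had 1 group of 2 biological replicates. Per the labels, the animals were of strain OP337, carried the unc119(ed3) allele and the insertion wgIs377, an fkh-10 transgene tagged with TY1, EGFP and FLAG together with an unc119 marker, and the antibody entry reads fkh-10. The strain number and the insertion number differ, so they are referred to by their label, as libraries labelled eGFP-FKH-10, and libraries from untagged animals were not analysed here. The files hold peaks without read counts, so depth is unknown. The intervals cover counting error only, the p-values rest on peaks and not on replicates, and neighbouring peaks are not independent.

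FKH-10 belongs to the forkhead family, transcription factors that grip DNA with a winged-helix domain and favour sites built around a TAAACA-like core. Such factors are studied mostly at promoters and enhancers, where they help to set when and in which cells a gene is read. Exons carry the sequence that stays in the messenger RNA: the coding sequence, which is translated, and the untranslated regions (UTRs) before and after it. Coding sequence has a base composition of its own, because codons constrain it, and in C. elegans it is richer in G and C than the introns and the DNA between genes.

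The windows below show what the DNA under these peaks looks like. The first 3 are the strongest coding peaks outside the stretches, the fourth is the strongest coding peak of the stretch on chromosome IV, and the last 2 are coding peaks in collagen genes, a family described further down. Each spans 201 bases centred on the summit, on ce11 (the chromosomes of WBcel235, read from the RefSeq genome of that assembly), 5' to 3' on the strand of the gene. Capitals mark coding bases and lower case marks intron.
zag-1, chrIV:3859666-3859866: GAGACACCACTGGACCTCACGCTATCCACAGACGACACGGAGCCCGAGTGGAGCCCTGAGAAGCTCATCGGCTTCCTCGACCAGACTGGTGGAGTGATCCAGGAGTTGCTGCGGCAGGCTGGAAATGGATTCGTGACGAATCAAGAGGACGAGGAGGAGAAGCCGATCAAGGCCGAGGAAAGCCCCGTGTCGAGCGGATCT
nhx-6, chrII:1672458-1672658: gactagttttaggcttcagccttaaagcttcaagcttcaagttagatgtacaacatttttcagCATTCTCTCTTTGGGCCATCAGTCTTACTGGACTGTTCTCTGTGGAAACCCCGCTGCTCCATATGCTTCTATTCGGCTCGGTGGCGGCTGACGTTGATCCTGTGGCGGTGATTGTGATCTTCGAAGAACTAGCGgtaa
dos-3, chrIII:835847-836047: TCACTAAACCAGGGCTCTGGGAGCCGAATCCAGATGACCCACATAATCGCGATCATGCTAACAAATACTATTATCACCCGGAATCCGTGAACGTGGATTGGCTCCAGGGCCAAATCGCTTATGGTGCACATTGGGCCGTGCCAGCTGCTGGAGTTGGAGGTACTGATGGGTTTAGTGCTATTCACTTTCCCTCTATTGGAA
klp-18, chrIV:7042952-7043152: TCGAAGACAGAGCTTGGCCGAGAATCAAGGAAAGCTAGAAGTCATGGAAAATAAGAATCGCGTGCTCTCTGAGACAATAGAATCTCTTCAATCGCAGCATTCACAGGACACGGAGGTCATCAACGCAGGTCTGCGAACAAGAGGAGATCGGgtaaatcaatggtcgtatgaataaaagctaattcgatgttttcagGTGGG
bli-2, chrII:5651556-5651756: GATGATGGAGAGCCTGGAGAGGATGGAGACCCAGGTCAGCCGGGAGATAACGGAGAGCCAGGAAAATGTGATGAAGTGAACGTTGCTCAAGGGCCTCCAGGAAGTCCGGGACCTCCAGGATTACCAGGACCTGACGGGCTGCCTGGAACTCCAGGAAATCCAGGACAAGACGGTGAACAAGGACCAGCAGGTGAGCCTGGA
col-131, chrIV:13066144-13066344: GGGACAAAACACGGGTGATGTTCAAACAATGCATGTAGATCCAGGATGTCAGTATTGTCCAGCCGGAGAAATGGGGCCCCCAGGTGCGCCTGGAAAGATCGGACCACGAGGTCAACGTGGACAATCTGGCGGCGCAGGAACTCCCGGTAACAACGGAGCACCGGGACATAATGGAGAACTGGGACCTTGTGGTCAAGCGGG
The windows of zag-1, dos-3, bli-2 and col-131 were coding throughout, that of nhx-6 took in a whole exon of 134 bases with intron on both sides, and that of klp-18 held 156 coding bases. GC content was 59.7% at zag-1, 57.7% at bli-2, 56.7% at col-131, 50.2% at dos-3, 47.3% at nhx-6 and 45.3% at klp-18. The collagen windows show the repeated glycine and proline codons (GGN and CCN) of a collagen helix.

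Outside the stretches the strongest exonic peak was in gar-2, which encodes a muscarinic acetylcholine receptor, with its summit in the 5' UTR on chromosome III (summit 6317517). Its signal, the peak height in the authors' units, was 67.5 in the pooled list, 37.1 in replicate 1 and 35.3 in replicate 2. It lay 6722 bp from the nearest gene 5' end but inside the window of an annotated transcript start of its gene. Next came zag-1, a zinc finger and homeodomain factor of neurons (43.5 pooled, 17 and 26.2 in replicates 1 and 2), and nhx-6, a sodium and proton exchanger (42.6, with 22.1 and 25.5). Both had their summits in coding sequence. The peak in dos-3, named for a domain shared with Delta ligands and OSM-11, had 40.5 (29.7 and 18.8). A peak in the 3' UTR of Y69H2.9 (chromosome V, summit 18705471) had 38.7 (15.9 and 17.2), and one in a non-coding exon of C23H3.9 (chromosome II, summit 73572) had 37.7 (26.8 and 22.9). These 6 were present in both replicates. Signals of different lists are on scales that may differ, so places within each list are the safer guide: gar-2 ranked 74 in replicate 1 and 58 in replicate 2, zag-1 1238 and 150, and dos-3 155 and 410.

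The rest of the 20 strongest outside the stretches ran down to a signal of 28.9. They included further regulators, such as the zinc finger homeobox gene zfh-2 (35.8 pooled, 25.5 and 10.1 in the replicates), the Meis-type homeodomain gene unc-62 (30, with 19 and 12.8), and the nuclear hormone receptor genes nhr-41 (29.7, with 13.6 and 13.3) and nhr-11 (28.9, with 25.1 in replicate 1 and no peak in replicate 2). They also included klp-7, a kinesin that takes microtubules apart (32, with 22.3 and 13.2), smg-3, a factor of nonsense-mediated mRNA decay (30.2, with 9.90 and 17.8), and egl-30, the alpha subunit of a Gq protein (29.6, with 20.6 and 10.8). Of the 20, 12 had their summit in coding sequence, 5 in a 5' UTR and 2 in a 3' UTR. In 18 of them both replicates had a peak, and 6 of the 20 lay in the window of an alternative transcript start.

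Few of these peaks were strong, although their median was close to that of other classes. The 959 had a median signal of 18.8 (quartiles 17.3 and 21.2, range 16.2 to 81.1), against 19.7 for promoter peaks, 18.7 for intronic and 19.0 for intergenic ones, and 96.9% of them were under 30. Low signals were common in every class, and the intronic peaks came nearest. Outside the dense stretches the 95th percentile was 25.7 for exonic, 29.1 for intronic, 34.5 for intergenic and 36.7 for promoter peaks. In the thresholded list, which holds the pooled peaks with a signal of at least 36.6, there were 21 of 959 (2.19%, 1.44 to 3.32), where 4.35% of all autosomal peaks were in that list. The promoter, intronic and intergenic peaks together had 197 of 4855 there (4.06%), so that the exonic share was lower by 1.87 percentage points (a difference of -1.87; two-sided Fisher's exact test p = 0.00388). From replicate 1 alone the difference was -1.45 points and the call was lost (Fisher's exact test p = 0.0559), while from replicate 2 alone it was -2.83 points (p = 5.00e-07). No replicate has a thresholded list of its own, so these differences rest on other peaks and a stand-in for that list. The shares were 2.58% against 4.03% in replicate 1 and 1.79% against 4.62% in replicate 2. Class by class, the exonic share was below the promoter share of 6.26% (Fisher's exact test with Benjamini-Hochberg adjustment over the 3 classes, adjusted p = 2.14e-06). In the same exact tests it was not distinguished from the intronic 2.23% (adjusted p = 1) or the intergenic 3.27% (adjusted p = 0.232). Nearest to the threshold were C23H3.9 at 37.7 above it and zfh-2 at 35.8 below it.

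The strongest exonic peaks were concentrated in the dense stretches, and without these the gap to the other classes was wider. Of the 21 peaks in the thresholded list, 13 lay in the stretch on chromosome I, 2 in that on IV and 6 elsewhere. Outside the stretches the share was 6 of 936 (0.641%, 0.294 to 1.39), beside 3.64% of all autosomal peaks outside them and 3.47% of the other 3 classes (a difference of -2.83 percentage points, Fisher's exact test p = 1.56e-07). In Fisher's exact tests it was then below each class in turn: promoter at 5.11% (adjusted p = 9.55e-11), intergenic at 3.30% (adjusted p = 1.50e-05) and intronic at 1.84% (adjusted p = 0.0144). Of the 1000 strongest pooled peaks, 730 were autosomal and 51 exonic.

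In the stretch on chromosome I, 16 exonic summits fell in 6 neighbouring genes, and 13 of them were above the threshold. The gene hmp-2 encodes the beta-catenin of cell junctions and had 3, with pooled signals of 72.6, 67.6 and 38.1. For the first, replicate 1 had 35.3 and replicate 2 had 71.3. The gene mtx-1 encodes a metaxin of the mitochondrial outer membrane and had 2, at 81.0 and 47.8, both overlapping the same replicate peaks (27.8 in replicate 1 and 54.1 in replicate 2). The uncharacterised genes K05C4.3, K05C4.4, K05C4.5 and K05C4.9 held the others, led by K05C4.4 at 81.1 (31.0 and 73.1). Each replicate had a peak at 15 of the 16, with a median signal of 27.8 in replicate 1 (7.99 to 35.7) and 37.9 in replicate 2 (6.06 to 73.1). These intervals were uneven in width, from 92 to 604 bp, whereas all 936 intervals outside the stretches were 336 bp wide. Density reached 1584 exonic summits per Mb of eligible exon, where the autosomes together had 55.2.

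The stretch on chromosome IV was sparser. Its 7 exonic summits lay in adah-1 (46.4 pooled, 30.9 and 15.3 in the replicates), in the nuclear hormone receptor gene nhr-105 (38.6, with 31.5 and 10.4), in cogc-2, a subunit of the Golgi tethering complex (19.3 pooled), in C06G3.8 (20.2 pooled) and 3 times in klp-18, a kinesin of the meiotic spindle. The genes cogc-2 and C06G3.8 fall outside the rule for named genes and are given to complete the stretch. The klp-18 peaks had pooled signals of 35.3, 17.2 and 16.6, of which the first 2 overlapped the same peak in each replicate (22.9 and 13.8). The adah-1 peak ranked 132 in replicate 1 and 829 in replicate 2, and that of nhr-105 120 and 3933, whereas the strongest hmp-2 peak of the other stretch ranked 86 and 3.

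**Figure D1:**
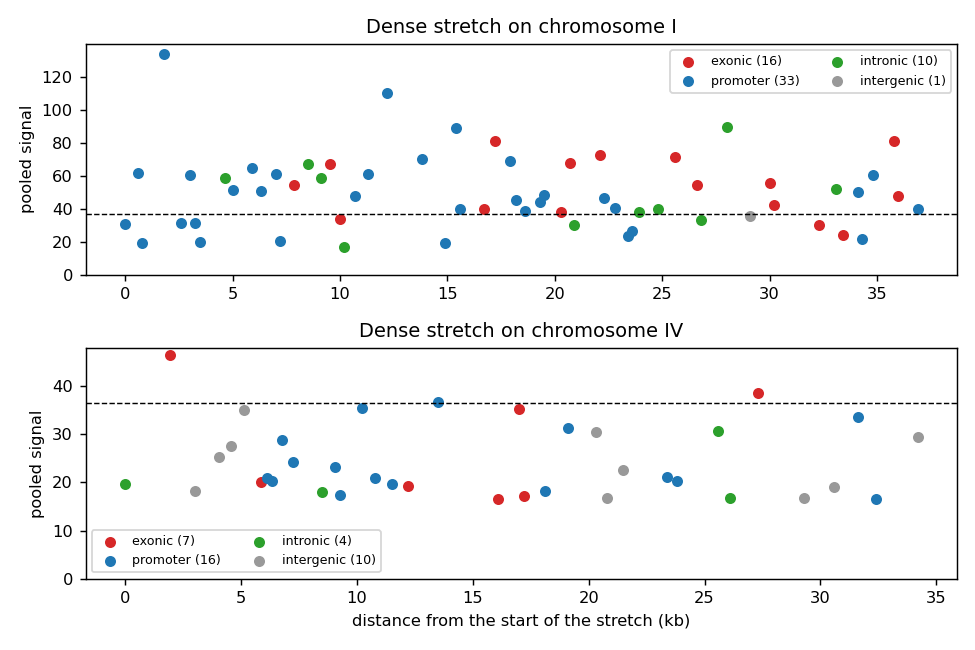
Pooled peak signal in the authors' units against distance in kb from the start of each dense stretch, 1 point per pooled summit, coloured by position class, with the dashed line at the signal of 36.6 that bounds the thresholded list. On chromosome I 13 of the 16 exonic summits are above the line, among 33 promoter, 10 intronic and 1 intergenic summits. On chromosome IV 2 of the 7 are.

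Both replicates had a peak at most of the exonic sites, though seldom a high-ranking one. A replicate 1 peak overlapped 782 of the 959 (81.5%) by at least 1 bp and a replicate 2 peak 750 (78.2%). Both did so at 577 (60.2%, 57.0 to 63.2), where 62.3% of all autosomal peaks had both and 62.0% of the other 3 classes did (a difference of -1.81 percentage points, Fisher's exact test p = 0.292). By class, both replicates had a peak at 65.3% of promoter peaks (Fisher's exact test, adjusted p = 0.0248), 60.8% of intergenic peaks (adjusted p = 0.76) and 59.2% of intronic peaks (adjusted p = 0.76). Replicate 1 alone accounted for 205, replicate 2 alone for 173, and 4 had neither. A replicate 1 peak overlapped 87.2% of promoter, 87.2% of intronic and 86.8% of intergenic peaks, each above the exonic 81.5%. For replicate 2 the shares were 77.2%, 71.8% and 73.5%, each below the exonic 78.2%. The exonic shares thus differed from the others in opposite directions in the replicates, which was not tested. The replicate lists were long (27900 and 30000 peaks), and the overlap is partly built in, since the pooled list came from the same libraries. With each list held to its strongest 7443 peaks, 12.9% of exonic peaks and 18.6% of the other 3 classes had both (a difference of -5.65 points, Fisher's exact test p = 1.92e-05).

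Where both replicates had a peak, their signals showed no positive rank correlation among the sites picked. Replicate 1 signals had a median of 11.8 (7.25 to 37.1) and replicate 2 signals a median of 9.15 (4.86 to 73.1). Spearman's rho between them was -0.058 across the 577 sites and -0.128 across the 556 outside the stretches, given as a description over sites that share 2 libraries and were picked by their pooled signal. Sites weak in both replicates tend to be missing from a list picked in this way, which lowers rho. The values therefore cannot show whether the replicates agree, and rho was not computed for other classes. Recurrence went with pooled signal: with the peaks in 4 equal classes by pooled signal, 39.2% of the weakest, 55% and 61.1% of the middle ones and 85.4% of the strongest had a peak in both. The pooled signal came from the same libraries, so this trend is partly built in. Peaks outside the exonic class were not divided in this way.

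**Figure D2:**
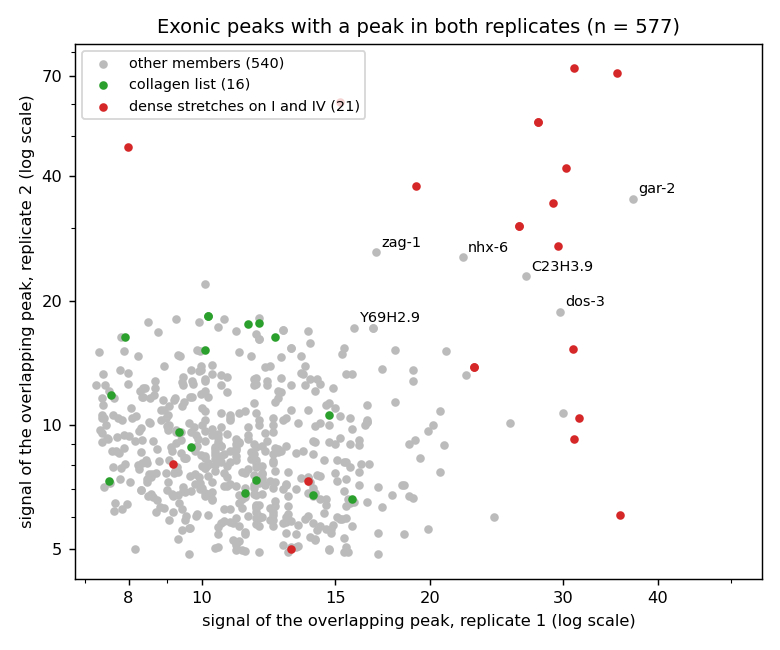
Signal of the overlapping peak in replicate 1 (horizontal) and replicate 2 (vertical), both in the authors' units on log scales, for the 577 exonic peaks with a peak in both. Red points are the 21 in the dense stretches and green points the 16 in collagen genes. The 6 named genes are those of the thresholded list outside the stretches, and the grey cloud shows no rise from left to right. Sites weak in both replicates tend to be missing, because the sites were picked by their pooled signal.

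The replicates differed in how many exonic peaks they held and of which kind. When the same rule was applied to the strongest 7443 peaks of each replicate alone, 774 of 5987 autosomal peaks were exonic in replicate 1 (12.9%, 12.1 to 13.8) and 1398 of 5959 in replicate 2 (23.5%, 22.4 to 24.6). The pooled 16.1% lay between them. Of the exonic peaks so found, 11.5% in replicate 1 and 6.58% in replicate 2 overlapped one of the other. These shares were not taken for the other classes, so they cannot be called particular to exonic peaks. Over the whole relaxed lists the shares were 14.9% and 23.5%. With 2 replicates of 1 group there is no test of this difference over samples.

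Summits fell in each exon part in proportions that were not the same in the replicates. Of the 959 pooled summits 805 were in coding sequence (83.9%), which makes up 87.2% of the eligible exon bases, 113 were in 3' UTRs (11.8% against 10.4% of bases) and 36 in 5' UTRs (3.75% against 1.82%, 2.06 times as many). By the exact binomial test (two-sided, adjusted over the 3 parts), the coding deficit had an adjusted p of 0.00561, the 3' UTR share 0.187 and the 5' UTR excess 2.48e-04. Without the stretches the shares were 84.0%, 11.6% and 3.85% (exact binomial tests, adjusted p = 0.00685, 0.239 and 1.27e-04). Replicate 1 alone had fewer coding summits, 76% (exact binomial test, adjusted p = 8.32e-17), and more in 3' UTRs, 18.7% (adjusted p = 8.09e-12). Replicate 2 alone went the other way, with 89.6% coding (exact binomial test, adjusted p = 0.00981) and 7.30% in 3' UTRs (adjusted p = 2.01e-04). The coding and 3' UTR comparisons thus changed direction between replicates. The 5' UTR share was above its share of bases in both, at 4.01% and 2.72% (exact binomial tests, adjusted p = 6.78e-05 and 0.0162), but over the whole relaxed list of replicate 2 it was 1.98% (adjusted p = 0.375).

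Many 5' UTR bases away from the outermost 5' end of a gene lie near the start of another annotated transcript. Of the 36 summits in 5' UTRs, 26 (72.2%) were in the window around such a start, where 61.2% of the eligible 5' UTR bases are. Of the coding summits 104 of 805 were (12.9%, against 8.15% of coding bases), and of those in 3' UTRs 2 of 113 (1.77%, against 3.06%). In all this held for 136 of 959 (14.2%), beside 8.62% of the eligible bases. When the windows of every transcript start were left out, 10 of 823 summits were in 5' UTRs (1.22% against 0.775% of bases, exact binomial test, adjusted p = 0.158), and the coding share was 85.2% against 87.6% (adjusted p = 0.0589).

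**Figure D3:**
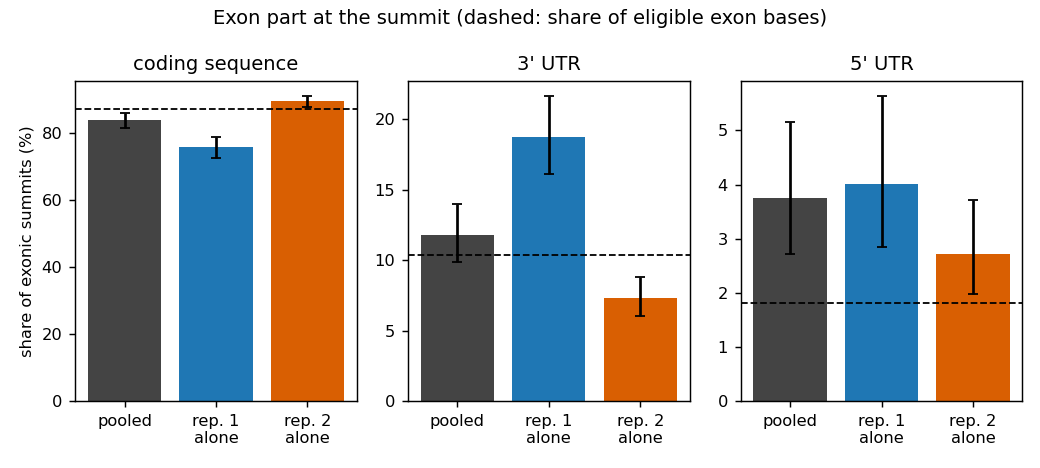
Share in percent of exonic summits in coding sequence, 3' UTR and 5' UTR for the pooled list (959 summits) and for replicate 1 (774) and replicate 2 (1398) alone. Error bars are 95% Wilson intervals for counting error and dashed lines the shares of eligible exon bases. For coding sequence and 3' UTRs the bars of replicates 1 and 2 lie on opposite sides of the line, and for 5' UTRs all 3 bars are above it.

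Exonic summits lay on DNA rich in G and C. Within 100 bp of the summit GC content averaged 43.2% ± 8.48 (SD over 959 peaks), against 37.2% in flanks 500 bp away and 39.4% over all eligible exon bases, and 711 of 959 (74.1%) exceeded their flanks. The gap to the flanks was 6.02 percentage points, and 3.66 from replicate 1 alone against 7.08 from replicate 2 alone. The flanks are less exonic (46.3% of their bases, against 84.9% in the windows and 84.1% around eligible bases), so the eligible bases are the closer reference. Among coding summits alone the mean was 44.8%, against 40.3% for eligible coding bases. The means at promoter, intergenic and intronic peaks were 38.8%, 37.5% and 36.5%. Exons differ from this other DNA in base composition, so the gap between classes is partly set by the rule. When the eligible bases were divided into 5 classes of about equal size by the GC content around them, 411 of the 959 summits fell in the highest class (44.8 to 73.1% GC), at 129 per Mb, and the other 4 classes had between 33.4 and 48.2 per Mb.

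This pattern, too, differed between the replicates. Replicate 1 alone had 61.4 exonic summits per Mb in the highest class and 52.6 in the lowest, with 32.3 in the middle one. Replicate 2 alone had 219 in the highest class and 27.2 in the lowest. Mean GC content of the exonic windows was 39.9% in replicate 1 and 45.0% in replicate 2. The same gap stood in the other classes, with 35.6% and 41.3% at promoter peaks, 33.5% and 39.6% at intronic peaks and 34.4% and 40.7% at intergenic peaks. Among the pooled exonic peaks, the 205 found in replicate 1 only averaged 39.4%, the 173 found in replicate 2 only 45.6%, and the 577 found in both 43.8%. Of those in replicate 1 only, 76.6% were coding and 21% in 3' UTRs, whereas in replicate 2 only 93.1% were coding and 5.20% in 3' UTRs. Libraries can differ in how well they recover GC-rich DNA, and the part of this in the difference between replicates was not tested.

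**Figure D4:**
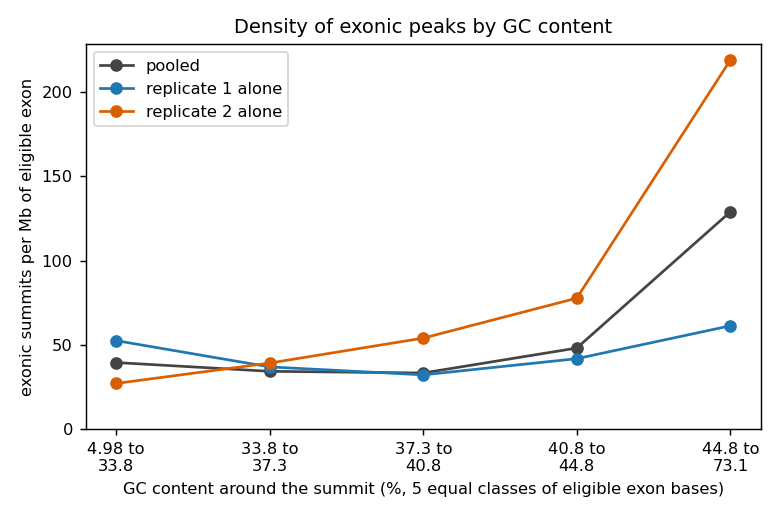
Exonic summits per Mb of eligible exon in each of the 5 classes of eligible bases by GC content (percent G and C within 100 bp), for the pooled list and for replicate 1 and replicate 2 alone. Replicate 2 climbs from 27.2 in the lowest to 219 in the highest class, replicate 1 stays between 32.3 and 61.4, and the pooled list lies between them in the highest class at 129.

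Words of the forkhead core were less common at these summits than in exons generally. The words searched, on both strands, were GTAAACA or ATAAACA or GTAAATA or ATAAATA, which may overlap one another. One or more stood within 100 bp of the summit in 79 of 959 windows (8.24%, 6.66 to 10.1), against 13.4% of the flanks and 13.5% of windows around all eligible exon bases. Within the GC classes the shares were 22.9% against 27.7% of eligible windows in the lowest, then 15.8 against 16.9%, 10.2 against 11.4%, 7.45 against 7.16%, and 0.730 against 3.09% in the highest, which holds 411 of the peaks. The windows found in replicate 1 only had a core in 11.7% and those in replicate 2 only in 3.47%. Among the 20 strongest peaks outside the stretches 1 had one, Y69H2.9. A match is a description of letters and not a binding site.

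Cuticle collagen genes held more exonic summits than their share of exon bases. They encode the short triple-helical proteins of the worm's exoskeleton, many of which are made in the late embryo as the first cuticle forms. The list, taken by symbol, had 27 exonic summits in 25 of its 138 autosomal genes with eligible bases (18.1%), where 5.65% of all such genes (845 of 14954) had one. Its share of the eligible bases would give 5.21 summits. All 27 were in coding sequence, none was in the thresholded list or in a stretch, and their signals ran from 16.3 to 29.8 with a median of 20.1. The strongest were in bli-2 (29.8 pooled, 11.5 in replicate 1 and 17.6 in replicate 2), col-60 (28.1, with 14 and 6.79), col-131 (26.4, with 12.5 and 16.3) and dpy-4 (26, with 14.7 and 10.6). The bli-2 peak ranked 7665 in replicate 1 and 501 in replicate 2, and the col-60 peak 3226 and 15084. The 27 include 2 summits in col-99, which encodes a transmembrane collagen, and a pair in col-71 that overlaps the same replicate peaks; dpy-4 and the last 2 genes fall outside the rule for named genes and were chosen after their values were seen.

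Collagen coding sequence is itself rich in G and C, and the excess was smaller against bases of like composition. The 27 windows averaged 57.4% ± 5.60 (44.8 to 65.7%), and the eligible bases of the list 52.1%. With the eligible bases split into 20 classes by GC content, the density of exonic summits in each class would give 14.7 summits in the list. A replicate 1 peak overlapped 18 of the 27 and a replicate 2 peak 25, with 16 in both. Of the exonic peaks of replicate 1 alone 9 lay in the list, where bases would give 4.20 and bases of like GC content 7.13. Of those of replicate 2 alone 35 did, where the same reckoning gave 7.59 and 25.6. The list was drawn up with earlier results of these data known, no test was made of it, and the part of base composition beyond these values was not tested.

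Some other lists were on one or the other side of their share depending on the reckoning. Genes of the basement membrane and hemidesmosomes had 11 summits where bases would give 8.25 and bases of like GC content 12.1, including 5 in let-805, which encodes myotactin, and others in unc-52, the perlecan gene. Chromatin regulators had 10 against 6.82 by bases and 8.65 by bases of like GC content, but 5 against 5.50 and 9 against 9.94 by bases in replicates 1 and 2 alone. Of these, set-29 (23.5), set-2, a histone H3 methyltransferase gene (22.8), and set-4 (22.5) came first by pooled signal. Nuclear hormone receptors had 16 against 13.6 by bases and 11.1 by bases of like GC content, with 19 against 11 by bases in replicate 1 alone and 19 against 19.9 in replicate 2 alone. By bases of like GC content the receptors were above in each replicate alone, with 19 against 10.7 and 19 against 14.2. Muscle filament genes had 4 against 7.62 and 8.81, led by the myosin gene unc-54 (25.7 pooled, 8.74 and 16.8 in the replicates). The muscle list was below by either reckoning in each replicate alone, with 1 against 6.15 and 6.13 in replicate 1 and 7 against 11.1 and 14.1 in replicate 2. Cytoplasmic ribosomal proteins, core and linker histones, tubulins and actins, forkhead genes and vitellogenins had 0, where their bases would give 0.499, 0.204, 0.650, 0.942 and 2.15, so that 0 is hardly below what their small share of eligible exon allows. Ribosomal protein and histone genes are short, and few of their bases are away from a 5' end.

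Chemoreceptor genes, a large family of sensory receptors, had fewer exonic peaks than their share of bases. Among 1292 autosomal chemoreceptor genes with eligible bases, 16 had one (1.24%), for a total of 17 summits where bases would give 45.0 and bases of like GC content 33.8. In replicate 1 alone they had 19, where bases would give 36.3 and bases of like GC content 35. In replicate 2 alone they had 28, where the same reckoning gave 65.6 and 40.1. F-box genes had 1 in the pooled list where bases would give 10.9 and bases of like GC content 8.06, but 6 in replicate 1 alone (8.83 and 8.25) and 11 in replicate 2 alone (15.9 and 10.1), so that against bases of like GC content the direction turned in replicate 2. C-type lectin genes had 9 in the pooled list against 9.61. These 3 families were chosen after values had been seen.

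**Figure D5:**
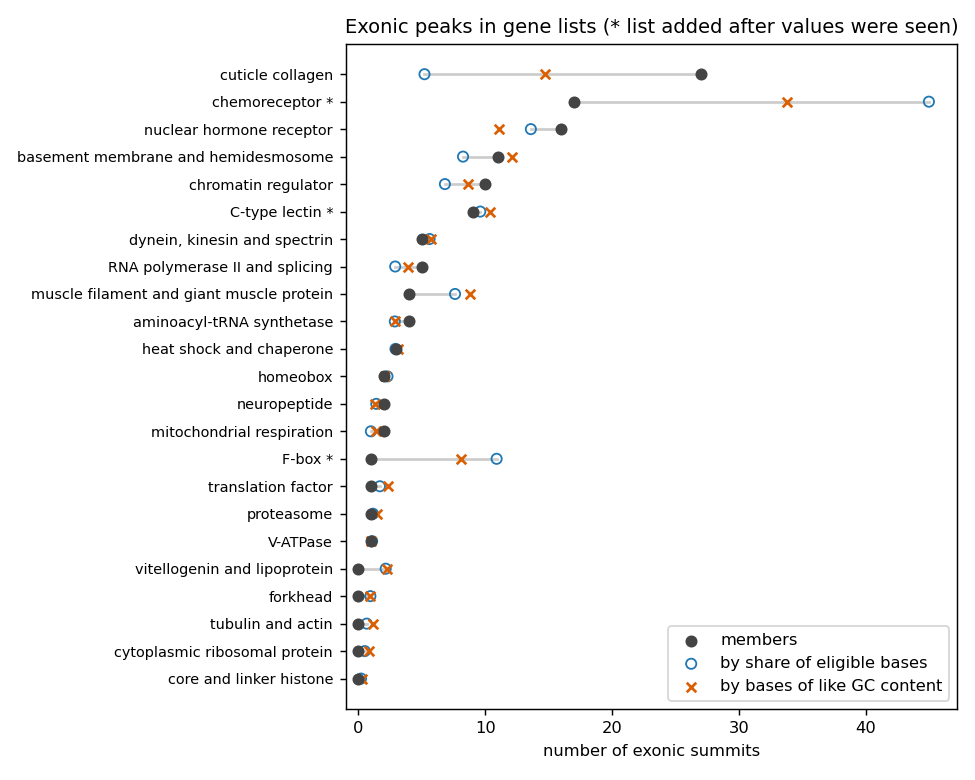
Number of exonic summits in each gene list (filled points), beside the number given by the list's share of eligible exon bases (open points) and by bases of like GC content (crosses). Cuticle collagens lie furthest to the right of their open point, 27 against 5.21, and chemoreceptors furthest to the left, 17 against 45.0.

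Most genes with an exonic peak had just 1. Of the 845 genes, 756 had 1, 64 had 2 and 25 had 3 or more, and genes with a peak had more eligible exon (median 1732 bases) than those without (790). The genes with 5 were let-805 and zfh-2. In let-805 the 5 summits spread over 10.7 kb, with pooled signals of 17.4 to 27.4, and the strongest had 18 in replicate 1 and 11.4 in replicate 2. In zfh-2 they spread over 12.2 kb, with 17.1 to 35.8. Those with 4 were K05C4.3 in the stretch on chromosome I, the TRPV channel gene osm-9 (16.6 to 20) and unc-43, the gene of the calcium and calmodulin-dependent kinase CaMKII (17.5 to 21.7).

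The genes with 3 included further cell adhesion and cytoskeleton genes: hmr-1, the cadherin gene (17.7 to 21), hmp-2, vab-10, a spectraplakin gene (16.4 to 19.2), dys-1, the dystrophin gene (17 to 20.8), and pod-1, a coronin-like gene (16.3 to 18.6). Eligible exon was 23.9 kb in vab-10, 11.4 kb in dys-1, 9.63 kb in hmr-1, 3.7 kb in pod-1 and 1.69 kb in hmp-2. All hmp-2 peaks lay in the stretch on chromosome I. Whether such genes hold more peaks than their share of exon was not tested. The genes with 3 also included the ETS factor gene ast-1 (17.1 to 22.9), the TFEB homologue hlh-30 (16.4 to 20.3), the protein kinase A gene kin-1 (19.1 to 20.9), egl-30 (16.9 to 29.6) and the acetylcholinesterase gene ace-4 (16.8 to 18.3). Some neighbouring summits in a gene overlap the same replicate peak, as in unc-43 and lin-66, and so are not separate observations. Outside the stretches 28 neighbouring pairs were under 1 kb apart, the median distance between neighbours being 51.0 kb.

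Exonic peaks lay farther from the outermost 5' ends of protein-coding genes than exon bases do on the whole. The nearest protein-coding 5' end was a median of 2131 bp away, against 1772 bp for eligible bases, and 16.6% were over 5000 bp from one, against 11.8%. The distance counts only the outermost 5' end of each gene. By all annotated transcript starts the direction differed, with 14.2% of the peaks in the window of one against 8.62% of eligible bases. The peaks were also farther from the 3' end of the host gene, with a median of 1567 bp against 1374 bp. Along the host gene their median place was 66.7% of the way from the 5' end, against 63.1%. By the longest transcript 68.3% fell in internal exons (73.6% of bases), 25.4% in last exons (22.6%) and 3.34% in first exons (1.90%). The exons were of ordinary size, with a median of 378 bp against 353 bp. Repeated sequence was rare: at 4 summits (0.417%) the summit base lay in a 31-base word found elsewhere in the genome, against 4.12% of eligible bases. Other classes of peaks were not compared in this. How reads from repeated words were placed is not known, so the value cannot be taken as a trait of exonic peaks.

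Chromosome V had the lowest density of exonic peaks. It held 158 of the 959 (16.5%) on 24.8% of the eligible exon, or 36.8 per Mb, where I, II, III and IV had 59.8, 63.0, 64.3 and 58.4. Without the stretches I had 55.2 and IV 56.4. V was also the lowest in each replicate alone, with 34.4 per Mb in replicate 1 (44.3 to 52 on the others) and 59.3 in replicate 2 (76.7 to 99.1). Over the whole relaxed lists the gap was narrower, with 173 in replicate 1 (196 to 209.7) and 281 in replicate 2 (323 to 371). The trait was partly shared, as V had the fewest pooled peaks of all classes together (1150, against 1163 to 1279). Exonic ones were 13.7% of the peaks on V and 15.2 to 17.9% on the others. In the pooled list exons had fewer summits per Mb (55.2) than intergenic DNA (66.7), introns (73.5) and promoter windows (83). The order was the same in replicate 1 alone (44.6 in exons, 69.9, 79.8 and 84.8 in the others). It turned in replicate 2 alone, where exons had 80.5, promoter windows 80.2, introns 64.9 and intergenic DNA 57.4 per Mb.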

How the data were processed

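ChIP-seq peaks of 1 group of 2 biological replicates were analysed. Per the deposited file lists, alignments of the replicates and of a control gave the authors a relaxed peak list for each replicate, one for both together and a thresholded list. The signal of a peak is its height as deposited by the authors, and was compared within a list only. Not given in the sources used here are its scale, the aligner, the caller, the thresholds and the read depth. There were 0 unused sample columns.

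Positions are 1-based on ce11. Exons came from Ensembl release 115 and sequence from RefSeq. Eligible bases (17.4 Mb) are the exon bases the rule allows. Exon parts were compared with two-sided exact binomial tests and classes with Fisher's exact tests, with Benjamini-Hochberg adjustment and a threshold of 0.05, and both were tested on simulated data. A summit in coding sequence of any transcript counted as coding. Each replicate's strongest 7443 peaks were also classified alone. Alternatives covered windows, gene models, overlaps and replicates. Those for 5' UTRs, the classes in each replicate alone, the counts by GC content and by replicate in the gene lists, and 3 gene families were chosen after seeing the data. The peaks and the 20 gene lists were chosen with earlier results of these data known. Named are the host genes of the 20 strongest peaks outside the stretches, of peaks in the thresholded list, of the 3 strongest in each stretch, of genes with 3 or more and of up to 3 per list; not all are printed, and exceptions are marked in the text. The ce10 lists were not used. The work used Python 3.11.15, numpy 2.4.6, scipy 1.17.1 and matplotlib 3.10.9.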

Additional observations from a re-analysis of the deposited data

How the results depend on the processing

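The number of exonic peaks was 423 for the stronger 50% of the pooled list, and stayed within 1.5 times 959 in 9 other settings. The coding share was 85.2% with every transcript start left out (exact binomial test, adjusted p = 0.0589), and over the settings without 1 replicate ran from 76 to 89.6%, reversed without replicate 1 at 89.6%. The 3' UTR share ran from 7.30% without replicate 1, where it reversed, to 18.7% without replicate 2. The 5' UTR share was 1.22% with every transcript start left out (exact binomial test, adjusted p = 0.158), an alternative chosen after seeing the data, and 2.72 to 4.01% without 1 replicate. The difference in thresholded shares was -2.83 points without replicate 1, -1.45 without replicate 2 (Fisher's exact test p = 0.0559) and -3.35 for the stronger 50% of the list (p = 0.0178). For a single replicate it rests on a stand-in for the thresholded list. The difference in shares with both replicates was -5.65 points with equally long lists. With the strongest peaks of replicate 2 in place of the pooled ones it was -14.8 (27.3% against 42.1%). With those of replicate 1 it was -0.939 (38.8% against 39.7%). A share with both replicates needs both lists, so these settings leave no replicate out and their shares are not like the pooled ones. The share of windows with a forkhead core was 4.59% within 50 bp, 13.7% within 150 bp and 0.521% for GTAAACA alone, and ran from 7.44 to 11.8% without 1 replicate. GC content stayed above the flanks in all 12 settings, by 3.66 points without replicate 2 to 7.52 with 50 bp windows. Except for these construction changes (fewer peaks, other window widths, other transcript starts), the cause was not tested. No paired analysis was possible because the series has 1 group. Read depth is unknown, and what it limits cannot be stated.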
